A study of Mus musculus with 35 samples.

Results

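Pou5f1, which encodes OCT4, and 5 further genes of the POU family (Pou2f1, Pou2f2, Pou2f3, Pou3f1 and Pou6f1) were followed through the conversion of mouse embryonic stem (ES) cells towards primitive endoderm (PrE) driven by GATA6. The 6 genes were taken by symbol from a table of 44853 genes, which lists 9 more POU-domain genes, and 2 of the 6 (Pou5f1 and Pou3f1) are also in a second, shorter table, of which 6264 genes were tested. The cells were KH2 ES cells (C57BL/6 x 129/Sv) with a GATA6 transgene under doxycycline (Dox) control, grown in serum and LIF on fibroblast feeders. Uninduced cells (0 h) gave 3 libraries. Cells kept in Dox (1 µg/mL) for 16, 24, 48, 72, 96 or 168 h gave 3 more at each time. XEN cells, an extra-embryonic endoderm line (X10, wild type, CD1 strain, grown without LIF) gave 2 libraries. Line, strain, medium and cell type cannot be told apart in any comparison with XEN cells. In a second series, GATA6-inducible cells received either a non-targeting siRNA pool (siCTL) or a pool against Oct4 (siOct4), with 48 h of Dox, in 6 libraries each. These cells were a single clone by the methods text.

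POU proteins bind DNA through a POU-specific domain joined to a POU homeodomain, and many recognise the octamer or close variants of it. OCT4 pairs with SOX2 on composite sites and is needed to keep ES cells pluripotent, and in the embryo it marks the inner cell mass, from which both the epiblast and the PrE arise. OCT1, encoded by Pou2f1, is made in most tissues. Pou2f2 (OCT2) is best known from B cells, Pou2f3 from skin and tuft cells, Pou3f1 (OCT6) from Schwann cells, brain and the epiblast as it leaves the naive state, and Pou6f1 from the nervous system.

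All 6 are protein-coding genes (GENCODE M21, mm10). Pou5f1 lies on chromosome 17 from 35506018 to 35510772 on the plus strand, and Pou3f1 on chromosome 4 from 124656807 to 124660655 on the plus strand. Pou2f1 (chromosome 1, 165865154 to 166002678), Pou2f2 (chromosome 7, 25087344 to 25179726), Pou2f3 (chromosome 9, 43123939 to 43210369) and Pou6f1 (chromosome 15, 100575318 to 100599984) lie on the minus strand. Pou2f1 shares 3007 exonic bases with Cd247 on the opposite strand, whose highest group mean was 2.01 TPM. Pou5f1 shares 317 with the antisense gene Gm19553, at most at 1.79 TPM. The libraries were stranded.

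RefSeq promoter windows (GRCm38.p6, 250 bases before and 50 after a start) were found for 4 of the 6 genes, 7 windows in all. Pou3f1 and Pou2f3 had no entry. The bases of the windows that lie before the GENCODE gene start are shown for Pou5f1 and for Pou2f1, the second most abundant member. Pou5f1 is at chr17:35505782-35506017, plus strand, and Pou2f1 at chr1:166002679-166002884, minus strand. Capitals mark AGGTCA and TCAAGG, half-sites of the kind bound by orphan nuclear receptors such as Nr5a2, Esrrb, Nr6a1 and Nr2f2, which are among the genes described further on.
Pou5f1: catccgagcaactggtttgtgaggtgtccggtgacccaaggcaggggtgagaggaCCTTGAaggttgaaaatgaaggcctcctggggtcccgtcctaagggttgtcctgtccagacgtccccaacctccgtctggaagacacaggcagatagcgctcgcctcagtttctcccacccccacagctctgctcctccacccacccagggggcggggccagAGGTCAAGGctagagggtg
Pou2f1: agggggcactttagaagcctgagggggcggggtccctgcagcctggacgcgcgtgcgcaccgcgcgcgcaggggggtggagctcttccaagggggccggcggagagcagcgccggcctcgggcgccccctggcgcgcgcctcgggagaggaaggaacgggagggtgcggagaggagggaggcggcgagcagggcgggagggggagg
In the Pou5f1 sequence AGGTCA lies 19 to 14 bases before the gene start and overlaps TCAAGG at 16 to 11 bases before it. A further TCAAGG lies on the other strand, 181 to 176 bases before the gene start. AGGTCA occurred in 16.3% and TCAAGG in 14.4% of all 32851 windows on either strand. The pair overlapping as AGGTCAAGG occurred in 0.310%, and other overlaps of these half-sites were not counted. Neither motif was in the main Pou2f1 window or in those of Pou2f2 and Pou6f1, while a window at an inner Pou2f1 start held TCAAGG. The octamer ATGCAAAT, found in 1.74% of windows, was in none of the 7.

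Values are TPM, transcript abundances scaled to the same total in every induction library and by transcript length, so levels of different genes can be set side by side. Before Dox, Pou5f1 was at 1572, 1558 and 1833 TPM in the 3 libraries and ranked 106th of 44853 genes by its mean. Pou2f1 was at 15.9, 17.8 and 17.7 TPM. Pou3f1 (5.90, 5.17 and 3.51 TPM) and Pou2f3 (3.14, 2.46 and 7.02 TPM) came next, with overlapping libraries. Pou6f1 (0.569, 0.832 and 1.20 TPM) and Pou2f2 (1.08, 0.964 and 0.426 TPM) were near 1 TPM. A gene was tested where at least 1 group mean reached 1 TPM. Pou5f1, Pou2f1, Pou2f3 and Pou3f1 passed this filter at 0 h, Pou6f1 passed it only through its 168 h mean of 1.04 TPM, and Pou2f2 did not pass, with a highest group mean of 0.899 TPM at 16 h. Of the 9 further POU-domain genes only Pou4f1 passed, with a highest group mean of 2.34 TPM. The highest group means of the other 8 ranged from 0.0101 TPM for Pou1f1 to 0.559 TPM for Pou3f4.

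Pou5f1 transcripts declined slowly at first and steeply later. At 16 h the libraries were at 1382, 1370.1 and 1304 TPM, at 24 h at 1203, 1216 and 1329 TPM, and at 48 h at 1150.5, 1141 and 1217 TPM. All 9 of these values lie below the lowest 0 h library, while the 16 and 24 h libraries overlap, as do those of 24 and 48 h. At 72 h the libraries held 867, 935 and 873 TPM, at 96 h 429, 471 and 600.3 TPM, and at 168 h 39.1, 39.1 and 112 TPM. XEN cells held 0.354 and 0.0506 TPM. From 72 h on, each group lay below the one before it without overlap. Of its 0 h mean, Pou5f1 kept 70.7% after 48 h of Dox and 53.9% after 72 h. After 96 h it kept 30.2% and after 168 h 3.83%, and XEN cells held 0.0122% of it. Its rank among all genes moved from 106th to 130th at 48 h, 284th at 96 h, 2690th at 168 h and 14989th in XEN cells.

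**Figure D1:**
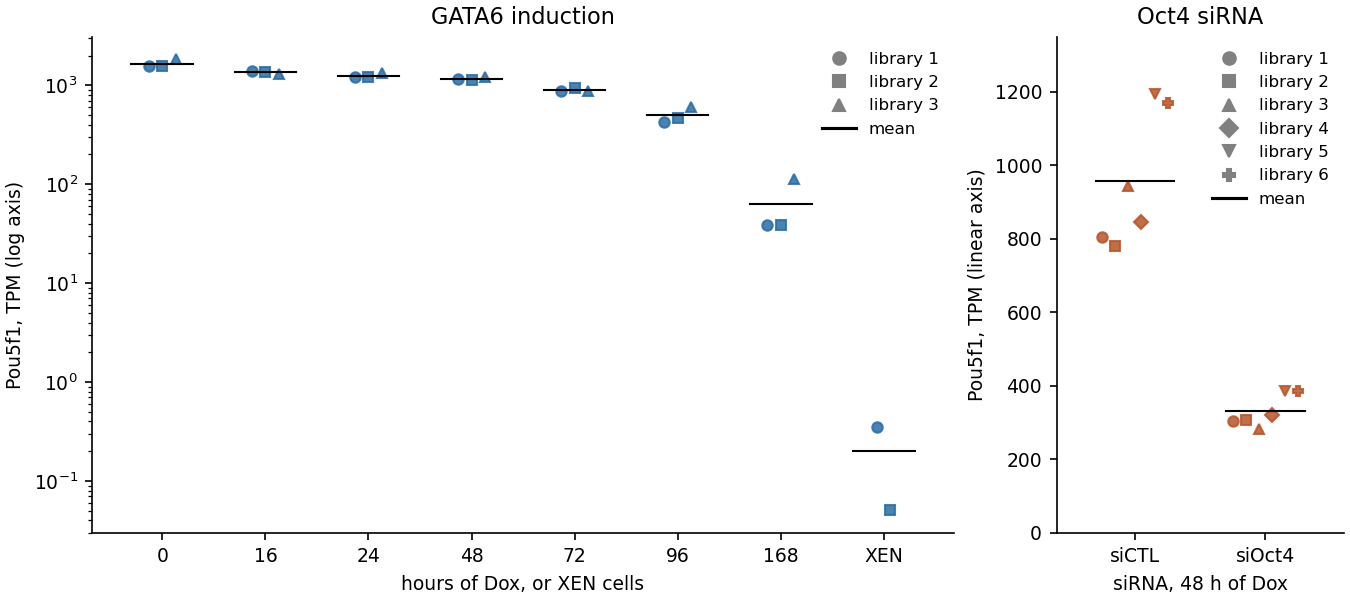
Pou5f1 level in each library. Left, hours of Dox or XEN cells on the x axis and TPM on a log y axis, with 3 libraries per time and 2 for XEN cells. Right, siRNA on the x axis and TPM on a linear y axis from 0, with 6 libraries each. Symbols give the library number and bars the group mean. The means pass from 1654 TPM at 0 h to 63.4 TPM at 168 h, and library 3 of 168 h sits at 112 TPM above the other two. The siOct4 libraries all lie below the siCTL libraries.

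On the log2(TPM + 1) scale in limma, with 1 estimate of spread for all 8 groups, Pou5f1 differed from 0 h by -0.29 ± 0.25 at 16 h, -0.40 ± 0.25 at 24 h and -0.50 ± 0.25 at 48 h (SE; adjusted p = 0.566, 0.264 and 0.108). At 72 h the difference was -0.89 ± 0.25 (limma adjusted p = 0.00476), short of the minimum of 1 that a call required. The 96 h value was -1.73 and that of 168 h -4.87, each with an SE of 0.25 (limma adjusted p = 5.92e-06 and 1.84e-12), and the XEN value was -10.43 with an SE of 0.28 (2.01e-16). The step from 96 to 168 h was -3.13 (limma adjusted p = 2.42e-08) and the one from 168 h to XEN cells -5.57 (1.28e-11). The shared spread took in the 168 h libraries, where library 3 stood apart. With only the 2 groups compared in the fit, adjusted p was 0.0278 at 16 h, 0.00573 at 24 h and 6.09e-04 at 48 h, for the same differences.

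Library 3 of 168 h raised the Pou5f1 mean of that time from 39.1 TPM without it to 63.4 TPM. Among 8 ES cell markers, 6 were also highest in that library, as were 9 of 10 markers of fibroblast feeders. So were 9 of 15 partner and regulator genes and 6 of 9 OCT4-SOX2 targets, both described further on. The share over all genes was not determined, so these counts are a description. Of these ES markers, Esrrb (0.621, 1.18 and 3.06 TPM in libraries 1, 2 and 3) and Tdgf1 (1.18, 1.37 and 3.10 TPM) stood clearly higher there. Sox2 (3.10, 3.12 and 3.31 TPM) and Zfp42 (31.1, 32.1 and 33.3 TPM) hardly differed. Klf2 was lowest there (13.4, 11.7 and 8.20 TPM). Summed feeder marker levels at 168 h were 100.4, 95.6 and 229 TPM in libraries 1, 2 and 3, against 27.4 to 96.2 TPM at 0 h. The part of feeder carry-over or of cells that kept ES features in these values was not tested. In bulk RNA, fewer cells with the transcript and less transcript per cell cannot be told apart. At 168 h, when 16.5% of all tested genes were called lower, all 8 ES markers were, with a median change of -6.02. Their sum, 7963 to 8253 TPM at 0 h and 1758 to 2481 TPM at 168 h, was mostly Dppa5a, which held 1740.5, 1706 and 2427 TPM in the 168 h libraries and changed by -1.67. In XEN cells the sum was 12.7 to 15.4 TPM, with 3 of the 8 at 0. The 11 PrE markers summed to 109 to 197 TPM, 25463 to 26269 TPM and 11414 to 11538 TPM at 0 h, at 168 h and in XEN cells.

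Relative to the other transcripts of the same library, Pou5f1 stood higher against its partner Sox2 and against Nanog, a further core pluripotency factor, from 16 to 96 h than before Dox. Before Dox the ratio of Pou5f1 to Sox2 TPM was 5.17 ± 0.90 (SD, n = 3, as for all Dox times). It reached 9.44 ± 0.95 by 16 h and 24.7 ± 2.4 by 48 h. Its highest mean, 54.2 ± 9.5, was that of 96 h, before 19.7 ± 12.3 at 168 h. That of Pou5f1 to Nanog went from 5.87 ± 0.28 at 0 h to 14.1 ± 0.58 at 16 h and 75.4 ± 15.4 at 96 h. At each of 16, 24, 48, 72 and 96 h, every library had a higher ratio to Sox2 than every 0 h library. Against the induced factor, whose TPM hold transgene and endogenous transcripts together, the ratio ran the other way. Pou5f1 over Gata6 TPM gave 10.1 ± 0.65 after 16 h and 7.24 ± 1.2 after 48 h. By 96 h the ratio was 2.10 ± 0.43, and by 168 h 0.184 ± 0.121. Against Sox17, a PrE factor, the ratio was 20.1 ± 2.5 at 16 h and 0.233 ± 0.176 at 168 h. Pou5f1 transcripts outnumbered those of Gata6 and Sox17 per length in every library up to 96 h, and in no library at 168 h.

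Pou2f1, the second most abundant member before Dox, moved little. It was at 15.3, 17.1 and 16.2 TPM at 16 h and at 16.5, 16.9 and 17.9 TPM at 24 h, within the 0 h range but for library 1 of 16 h and library 3 of 24 h. It was at 13.0, 14.5 and 14.3 TPM at 48 h, 12.3, 10.9 and 12.3 TPM at 72 h, and 10.9, 10.9 and 12.4 TPM at 96 h. At 168 h it was at 12.2, 14.7 and 15.6 TPM and in XEN cells at 11.2 and 11.4 TPM. Its change against 0 h was largest among the Dox times at 96 h, at -0.55 ± 0.09 (SE; limma adjusted p = 2.27e-05), and it was -0.56 ± 0.10 in XEN cells (5.95e-05). Both passed the p threshold but not the fold minimum. From 96 to 168 h it went up by 0.29 ± 0.09 on the log2 scale (limma adjusted p = 0.0149), with the 96 and 168 h libraries overlapping.

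Pou3f1 was higher at 16 h before it declined. The libraries were at 8.05, 8.20 and 7.44 TPM at 16 h, all above the 0 h libraries, and at 5.45, 5.58 and 5.49 TPM at 24 h. They were at 3.28, 2.60 and 2.44 TPM at 48 h, 1.96, 2.07 and 1.30 TPM at 72 h, 0.781, 0.831 and 0.781 TPM at 96 h, and 0.468, 0.975 and 0.466 TPM at 168 h. XEN cells were at 0.172 and 0.0506 TPM. The difference at 16 h was 0.62 ± 0.15 (SE; limma adjusted p = 0.0100), below the fold minimum, and at 48 h it was -0.62 ± 0.15 (0.00225). The falls that were called were -1.07 (72 h), -1.68 (96 h), -1.83 (168 h) and -2.38 (XEN cells), with limma adjusted p = 5.94e-06, 1.19e-08, 2.34e-09 and 3.22e-10. Without the libraries numbered 1, the 72 h value was -0.99 and no longer met the fold minimum. Markers of the formative epiblast, where Pou3f1 is known to be made, did not move as one at 16 h. Among all tested genes, 2.77% were called in either direction at that time. Of 6 tested formative markers, Dnmt3a (2.84) and Dnmt3b (1.66) were called higher and Otx2 (-2.06), Zic5 (-1.22) and Zic2 (-1.02) lower, with a median of -0.78. Their summed level, 156 to 170 TPM at 0 h and 589.7 to 609.8 TPM at 16 h, followed the DNA methyltransferases Dnmt3a and Dnmt3b.

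Pou2f3 was at 25.0% of its 0 h mean by 48 h, when Pou5f1 stood at 70.7%. It was at 3.90, 4.93 and 3.36 TPM at 16 h, inside the 0 h range, and at 1.54, 1.71 and 2.81 TPM at 24 h. It was at 1.03, 0.832 and 1.29 TPM at 48 h, 0.974, 0.456 and 0.223 TPM at 72 h, and 0.0710, 0.284 and 0.294 TPM at 96 h. At 168 h it is listed at 0 in libraries 1 and 2 and at 0.162 TPM in library 3, and in XEN cells at 0.0708 and 0 TPM. Called falls began at 48 h, with -1.25, followed by -1.68 at 72 h and -2.0 at 96 h, with an SE of 0.24 each (limma adjusted p = 2.48e-04, 6.33e-06 and 5.71e-07). The 168 h value was -2.21 and the XEN value -2.23 (1.12e-07 and 5.31e-07). The pseudocount of 1 compresses these changes. Without the libraries numbered 3, of which that of 0 h held 7.02 TPM, the 48 h difference was -0.97 and was not called. Whether Pou2f3 and Pou5f1 differed in the timing of their decline was not tested as such. Tuft cell markers summed to 1.25 to 2.02 TPM at 0 h.

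Pou6f1 and Pou2f2 stayed close to 1 TPM or below. Pou6f1 was at 0.466, 0.790 and 1.15 TPM at 16 h, 0.932, 0.862 and 0.669 TPM at 24 h, 0.477, 0.396 and 0.650 TPM at 48 h, and 0.304, 0.709 and 0.659 TPM at 72 h. It was at 0.386, 0.496 and 0.294 TPM at 96 h, then at 0.814, 1.25 and 1.06 TPM at 168 h, with no overlap between these times. XEN cells held 0.880 and 0.900 TPM. The step from 96 to 168 h was 0.55 and the change from 0 to 168 h 0.14 on the log2 scale. Both are given without a test, since the 168 h level itself brought Pou6f1 past the filter. Pou2f2 was at 0.416, 1.25 and 1.03 TPM at 16 h and 0.476, 1.02 and 0.547 TPM at 24 h. It was at 0.345, 0.193 and 0.325 TPM at 48 h, 0.142, 0.132 and 0.0406 TPM at 72 h, 0.0710, 0.0304 and 0.0710 TPM at 96 h, and 0.0203, 0.0812 and 0.0203 TPM at 168 h. XEN cells held 0.0404 and 0 TPM. From 48 h on, no Pou2f2 library overlapped with those of 0 h. With no filter on low values its 168 h difference was -0.79 ± 0.16 (SE; limma adjusted p = 3.75e-04), below the fold minimum. The 6 B cell markers summed to 2.75 to 3.40 TPM at 0 h, and Pou2af1, a coactivator of OCT1 and OCT2 in B cells, had a highest group mean of 0.118 TPM.

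**Figure D2:**
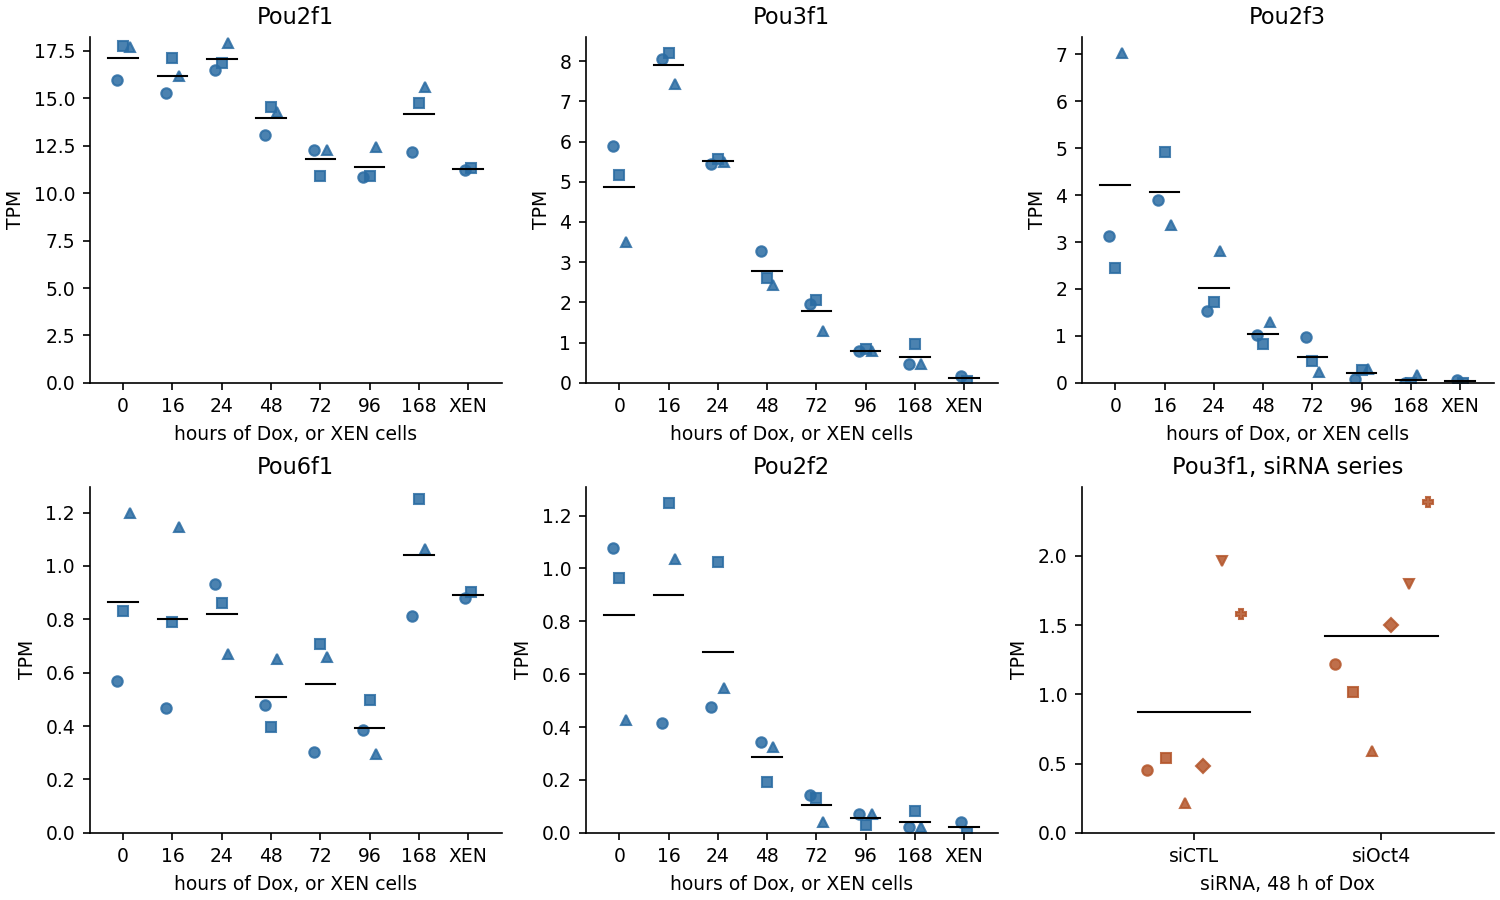
Levels of Pou2f1, Pou3f1, Pou2f3, Pou6f1 and Pou2f2 in each library of the induction series (hours of Dox or XEN cells on the x axis, TPM on a linear y axis from 0, with a scale of its own in each panel) and of Pou3f1 in the siRNA series. Circles, squares and triangles are libraries 1, 2 and 3, further symbols libraries 4 to 6, and bars are means. Pou3f1 peaks at 16 h at a mean of 7.90 TPM, while Pou6f1 is lowest at 96 h at 0.392 TPM.

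Of the 5 tested members, limma called none at 16 h and none at 24 h, when 2.77% and 5.68% of the 15057 tested genes were called (1 of the 5 had an unadjusted p under 0.05 at either time). Pou2f3 was called lower at 48 h (16.4% of all genes called), Pou2f3 and Pou3f1 at 72 h (26.2%), and these 2 and Pou5f1 at 96 h (29.5%). The same 3 were called lower at 168 h, when 39.1% of genes were called, 16.5% lower and 22.6% higher, and in XEN cells (37.6%). No member was called higher against 0 h. In steps, none was called from 16 to 24 h, 24 to 48 h, 48 to 72 h or 72 to 96 h, in which 0.352%, 5.56%, 3.33% and 1.71% of genes were called, and 2, 3, 2 and 2 of the 5 had an unadjusted p under 0.05. Pou5f1 was the single member called from 96 to 168 h (7.67% of genes) and from 168 h to XEN cells (13.9%). The median change of all genes from 0 to 168 h was 0.09, and -0.05 after rescaling by median ratios. From 168 h to XEN cells these values were -0.14 and -0.02.

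**Figure D3:**
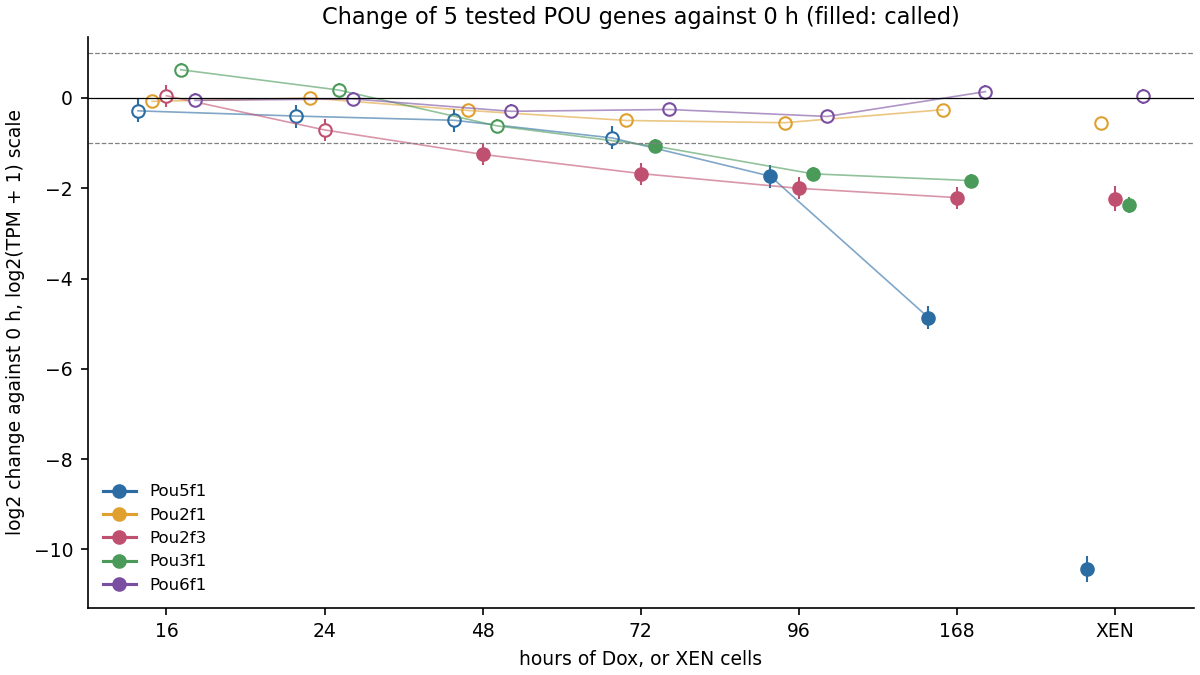
Change of the 5 tested POU genes against 0 h on the log2(TPM + 1) scale, by hours of Dox and in XEN cells. Points are limma estimates, vertical bars the SE, filled points called changes, and dashed lines the fold minimum of 1 either way. Pou5f1 ends at -4.87 at 168 h and -10.43 in XEN cells, while Pou2f1 and Pou6f1 stay between -0.56 and 0.14.

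The make-up of the summed POU transcript level changed late. Pou5f1 made up 98.2% ± 0.10 of the summed TPM of 15 POU-domain genes at 0 h (SD, n = 3), 97.6% ± 0.15 at 16 h, 98.3% ± 0.02 at 48 h and 97.3% ± 0.30 at 96 h. At 168 h it held 75.5% ± 9.08, with libraries from 68.1% to 85.6%, and in XEN cells 1.54% ± 1.6 (SD, n = 2). Pou2f1 went from 1.02% ± 0.09 at 0 h to 2.24% ± 0.22 at 96 h, 20.1% ± 7.2 at 168 h and 87.4% ± 3.4 in XEN cells, where Pou6f1 held 6.89% ± 0.33. The summed level itself had a mean of 1684 TPM before Dox, 80.6 TPM after 168 h and 12.9 TPM in XEN cells. In XEN cells each Pou2f1 value exceeded the Pou5f1 value of the same library, by 31.7 and 224 times.

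**Figure D4:**
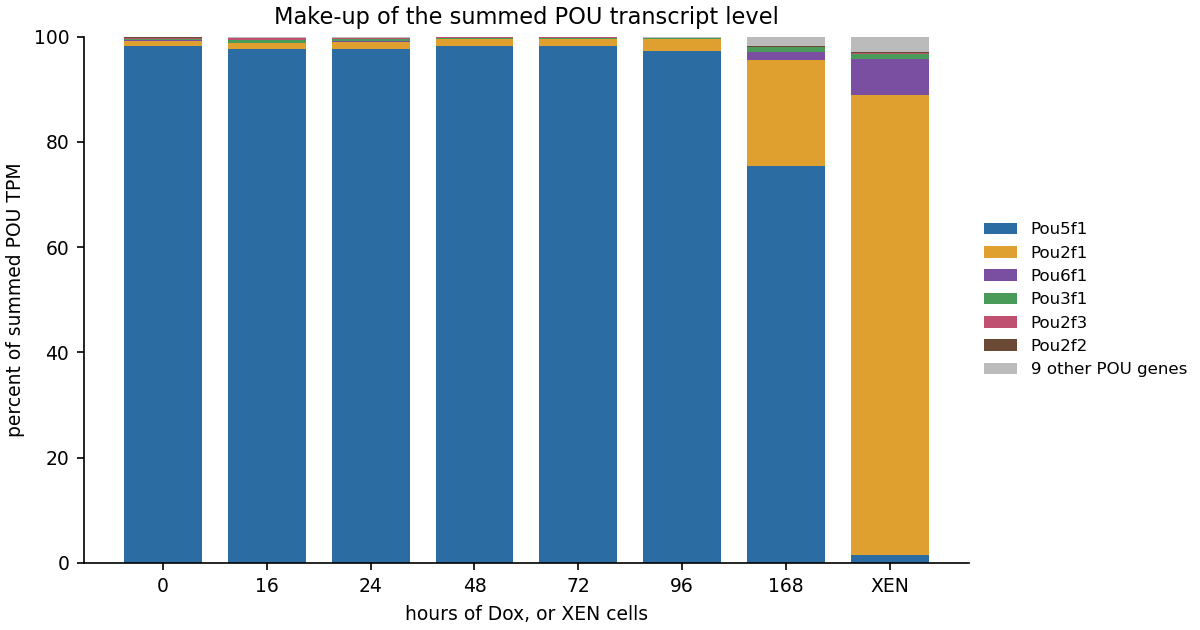
Mean share of each POU gene in the summed POU TPM, as stacked bars from 0 to 100% for each Dox time (3 libraries) and XEN cells (2 libraries). Pou5f1 fills 97.3% or more up to 96 h and 75.5% at 168 h, and Pou2f1 fills 87.4% in XEN cells.

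Among the less abundant POU-domain genes, Pou4f1, a factor of sensory neurons, followed a course like that of Pou3f1. It was at 1.15, 1.82 and 0.771 TPM at 0 h, 2.55, 2.13 and 2.32 TPM at 16 h and 0.0305, 0.122 and 0.101 TPM at 168 h. It fell by 1.02 at 168 h (SE 0.17; limma adjusted p = 2.67e-05). Pou3f4 and Pou3f3 had their highest means at 168 h, of 0.559 and 0.501 TPM, and were not tested. Neural markers summed to 8.07 to 15.2 TPM at 0 h and 5.23 to 5.44 TPM at 168 h.

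Genes with the course most like each tested member were sought by Pearson's r over the 8 group means of log2(TPM + 1), among 7064 genes with a group mean of at least 5 TPM and a span of at least 1. The 8 means share their libraries and the general course of the conversion, so r is a description. For Pou5f1 the highest values were those of Plekhf2 and Slc38a4 (0.998 each), Rps24 (0.996), Bzw2 (0.995) and Bcl3 (0.994). Their spans differ widely, with 6.20 for Slc38a4 and 1.25 for Rps24, a ribosomal protein gene, against 10.43 for Pou5f1. Slc38a4, an amino acid transporter, held 84.5 TPM before Dox, 90.9 TPM after 48 h, 10.9 TPM after 168 h and 0.253 TPM in XEN cells. For Pou3f1 the leading genes were Piwil2 (0.992), Uri1 (0.992), Grb10 (0.992), Rnf208 (0.990) and Spry1 (0.990), Spry1 being an antagonist of receptor tyrosine kinase signalling. For Pou2f3 they were Ubap1l (0.995), Rab25 (0.994), Pnma2 (0.993), Tgm1 (0.993), a transglutaminase of the epidermis, and Septin1 (0.992). For Pou2f1 they were Cbr3 (0.990), Spred2 (0.975), Taf9 (0.971), Il17rd (0.966) and Nkx6-2 (0.964), and for Pou6f1 Aplp2 (0.958), Vamp4 (0.952), Fchsd2 (0.914), Sh3bp4 (0.907) and Mtss1 (0.902).

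Pou5f1 shares its regulatory circuit with 15 partner and regulator genes, all of which were tested. At 168 h, 9 were called lower and 3 higher, when 16.5% of all genes were called lower and 22.6% higher, with a median change of -1.34 against 0.09 for all genes. The 3 higher calls are thus close to the share of all genes. The largest falls on the log2 scale were those of Nr0b1 (-6.89), Esrrb (-6.71), Nanog (-6.70) and Sox2 (-6.28). At 16 h, while Pou5f1 stood at 81.7% of its 0 h mean, 4 of the 15 were already called lower (2.77% of all genes were called in either direction), namely Prdm14, Nanog, Nr5a2 and Sox2 (-1.60, -1.54, -1.43 and -1.16). The 3 called higher at 168 h were the nuclear receptors Nr2f2 (2.12), Nr2f1 (1.43) and Nr6a1 (1.40), known as repressors of Pou5f1 and named here after their values were seen. Nr2f1 reached 1 TPM only at 168 h and in XEN cells, with means of 2.26 and 2.93 TPM, so its call rests on the level that admitted it. Nr6a1 went from 10.6 TPM at 0 h to 29.8 TPM at 168 h, and Nr2f2 from 1.16 to 7.81 TPM. Nr5a2, an activator of Pou5f1, held 25.8 TPM before Dox, 8.82 TPM after 16 h and 0.369 TPM after 168 h. Beyond the named-gene rule, and also chosen with values in view, Klf4 (0.81), Klf5 (0.44) and Sall4 (0.34) did not meet the fold minimum at 168 h.

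Of 9 genes known as targets of OCT4 with SOX2, 8 were called lower at 168 h and none higher, beside 16.5% and 22.6% of all genes, with a median change of -4.47. They were led by Tdgf1 (-7.43), Fgf4 (-5.77), Utf1 (-5.47) and Dppa3 (-5.13). Their early course differed from gene to gene. At 16 h, when 2.77% of all genes were called, Fgf4 and Zfp42 were called lower (-1.39 and -1.10), while Utf1 was at 508 TPM at 0 h and 510.4 TPM at 16 h. The exception at 168 h was Fbxo15, with 96.8 TPM before Dox, 122 TPM after 168 h and 105 TPM in XEN cells. The lists share members. Fgf4, Zfp42 and Tdgf1 are also ES markers, as are Nanog, Sox2 and Esrrb among the partners, so the counts for these lists are not separate results. Of 9 trophectoderm genes, which OCT4 is known to hold down in the inner cell mass, 6 were tested. At 168 h Krt8 rose by 5.41 and Krt18 by 4.79, Tfap2c fell by 3.74, and Hand1 was at 1.00 (limma adjusted p = 0.00121), just under the fold minimum. Hand1, below 1 TPM before Dox, passed the filter only through later groups in which it was higher. Its test thus cannot speak for a rise from 0 to 168 h. Hand1 and Eomes had their highest means between these times, 11.1 TPM at 72 h for Hand1, against 0.494 TPM before Dox and 2.08 TPM after 168 h, and 8.87 TPM at 96 h for Eomes, against 1.66 and 3.54 TPM. Krt8 and Krt18 are keratins of many epithelia, XEN cells included, where they were at 433 and 228 TPM.

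The second series asked what lowering Oct4 does while GATA6 is induced. Its table lists only GATA6-responsive genes, a choice made on data of this study, so that Pou2f1, Pou2f2, Pou2f3, Pou6f1 and the 9 further POU-domain genes were not analysed there. Pou5f1, the target of the siRNA, ranged from 782 to 1194 TPM in siCTL (median 895) and from 282 to 387 TPM in siOct4 (median 314), with no overlap. In the 6 pairs of libraries with the same number it stood at 29.8% to 39.4% of siCTL. The difference was -1.52 ± 0.14 (SE; limma adjusted p = 5.21e-05), and an exact two-sided permutation test over the 924 splits gave p = 0.00216, the smallest possible. With consecutive libraries (1 with 2, 3 with 4, 5 with 6) averaged, a choice made after seeing the data, the difference was the same but limma adjusted p was 0.0573 and the call was lost. The value is a check of the labels. The siOct4 libraries thus held fewer Pou5f1 transcripts than any 96 h library of the induction series (429 TPM or more), although the tables come from separate experiments. At 48 h of Dox the Pou5f1 mean was 957 TPM in siCTL and 1169 TPM in the induction series. The levels of the series are thus offset, and no stage can be read from them.

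Pou3f1 ranged from 0.215 to 1.96 TPM in siCTL (median 0.511) and from 0.591 to 2.39 TPM in siOct4 (median 1.36). It was higher with siOct4 in 5 of 6 pairs, at 151% to 309% of siCTL, and lower in pair 5, at 91.6%, and the groups overlapped. Pou3f1 passed the filter only through its siOct4 mean of 1.42 TPM, against 0.872 TPM in siCTL, so the tests given here cannot speak for a rise. The difference was 0.41 ± 0.25 (SE; limma adjusted p = 0.536, and 0.132 with the pairs as a replicate block) and was not called. The exact two-sided permutation test gave p = 0.147, and the exact paired sign-flip test p = 0.0625, where 6 pairs cannot give less than 0.0313. Libraries 5 and 6 of siCTL, at 1.96 and 1.58 TPM, set the upper end of the control range.

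**Figure D5:**
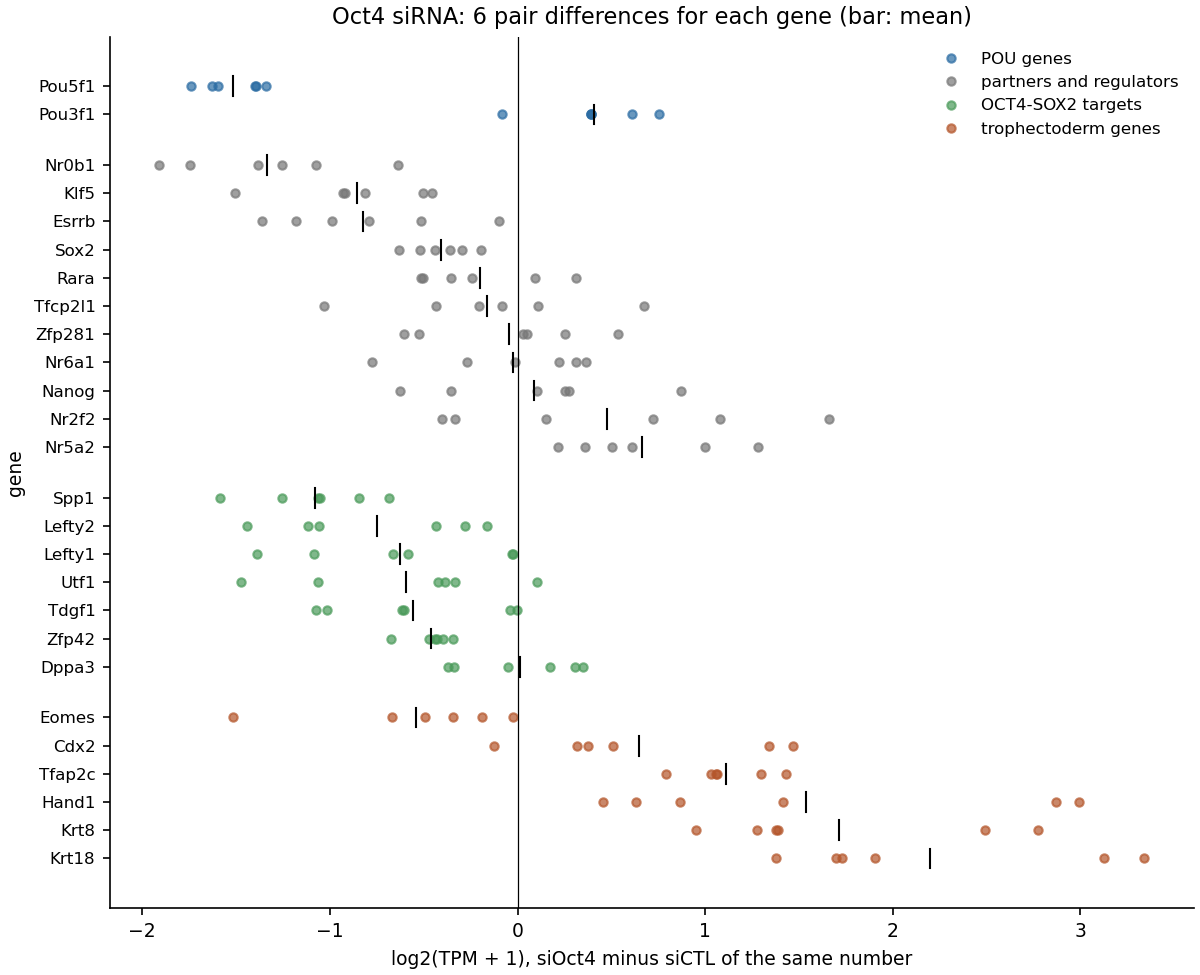
Differences between siOct4 and siCTL libraries of the same number, in log2(TPM + 1) on the x axis, for the POU genes, partners and regulators, OCT4-SOX2 targets and trophectoderm genes that the siRNA table lists (y axis). Points are the 6 pairs and bars the mean. Krt8, Krt18, Hand1, Tfap2c and Nr5a2 are higher in all 6 pairs. Pou5f1, Nr0b1, Sox2, Esrrb, Klf5, Zfp42, Spp1, Lefty1, Lefty2, Tdgf1 and the trophectoderm gene Eomes are lower in all 6.

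Among genes around Pou5f1, 2 of 6 tested trophectoderm genes were called higher with siOct4 and none lower, in a table in which 2.67% of 6264 tested genes were called, 0.942% higher and 1.72% lower. Krt18 ranged from 51.8 to 84.5 TPM in siCTL and from 214 to 534 TPM in siOct4, and rose by 2.20 ± 0.24 (SE; limma adjusted p = 2.97e-04). Krt8 ranged from 53.9 to 97.9 TPM in siCTL and from 165 to 375 TPM in siOct4, and rose by 1.71 ± 0.22 (0.00142). The siCTL and siOct4 libraries of these 2 keratins did not overlap. Hand1, a factor of trophoblast giant cells, and Tfap2c, a trophectoderm factor, differed by 1.54 ± 0.52 and 1.11 ± 0.49 and were higher in 6 of 6 pairs each (limma adjusted p = 0.164 and 0.323). With the pairs as a replicate block, both were called (0.0233 and 0.00112), and 4 of 6 genes were called higher, against 2.43% of all genes called higher and 6.15% lower under the block. Cdx2, a trophectoderm factor, was at a median of 0.972 TPM in siCTL and 2.01 TPM in siOct4, and was higher in 5 of 6 pairs. Cdx2 passed the filter only through its siOct4 mean of 2.30 TPM, against 0.969 TPM in siCTL, so its direction is no support for a rise. It still counts among the 6 tested and in the list's median. Eomes, also a trophectoderm factor, was at 8.66 and 5.33 TPM and went the other way, lower in 6 of 6 pairs (-0.54 ± 0.26, SE; limma adjusted p = 0.393). The list's median was 1.33, beside -0.12 for all genes of the table and 0.01 for all genes after rescaling by median ratios. With consecutive libraries averaged in the same way, Krt8 and Krt18 differed by 1.71 and 2.19 but were no longer called (limma adjusted p = 0.0990 and 0.0573).

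Of 7 tested OCT4-SOX2 targets, 1 was called lower, and 2 with the block. Of all tested genes, 1.72% were called lower and 0.942% higher. With the block these shares were 6.15% and 2.43%, against which the counts in this paragraph should be read. Spp1, which encodes osteopontin, ranged from 273 to 596 TPM in siCTL and from 121 to 341 TPM in siOct4, was lower in 6 of 6 pairs, and fell by 1.08 ± 0.27 (SE; limma adjusted p = 0.0441). Lefty2 differed by -0.75 (limma adjusted p = 0.711, but 0.0437 under the block). The call of Spp1 was lost without libraries 1, 2, 4, 5 or 6 in turn (limma adjusted p = 0.0737 to 0.150). Of 11 tested partners and regulators none was called by limma (2 had an unadjusted p under 0.05), and with the block 3 were called lower and 1 higher. Nr0b1 ranged from 4.63 to 23.5 TPM in siCTL and from 2.62 to 9.72 TPM in siOct4 and differed by -1.33 ± 0.38 (limma adjusted p = 0.0864, but 0.00164 under the block). Klf5 differed by -0.86 and Esrrb by -0.82 (0.0629 and 0.656, but 0.00292 and 0.0176 under the block), while Nr5a2 differed by 0.66 (0.498, but 0.0426 under the block). Gata6 was lower in 6 of 6 pairs, by -0.50 ± 0.22 (limma adjusted p = 0.326), and was not called with the block either (0.0503). Its TPM hold transgene and endogenous transcripts together. The paper measured endogenous Gata6 apart, by a stretch absent from the transgene, and reports lower expression with Oct4 knock-down. Of the cell type markers in the table, 7 ES markers gave no call (1 had an unadjusted p under 0.05; limma, 1 lower with the block), 11 PrE markers 1 lower (6 with the block) and 4 feeder markers none in either fit, with none at an unadjusted p under 0.05.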

How the data were processed

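RNA was sequenced from 35 libraries, 23 of the induction series (3 for each of 7 Dox times, 2 of XEN cells) and 12 of the siRNA series (6 per siRNA), as stranded, paired-end, poly(A)-selected libraries. Per the labels and the study's methods, the authors aligned the reads with STAR to mm10 and quantified them with RSEM, and both deposited tables hold TPM. Tool versions and the annotation are not given in the sources used here. Depth is unknown from TPM, so no counting interval can be given. The siRNA table also holds the authors' classes of genes and group means, which were not used.

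The POU genes, gene lists and markers were chosen with earlier results of these data known. TPM were tested as log2(TPM + 1) with limma 3.58.1 (trend and robust empirical Bayes, two-sided) on genes whose mean reached 1 TPM in any group, in 1 fit of all groups per table, with Benjamini-Hochberg adjustment over all genes tested in a contrast. Symbols occurring more than once were represented by their most abundant row. A gene was called at an adjusted p under 0.05 and an absolute log2 change above 1 (induction) or 0.5 (siRNA). The code was tested on simulated data. For single siRNA values exact permutation tests were run with SciPy. Groups and replicate numbers came from the sample titles. In the siRNA series, deviations from the group means correlated between libraries of the same number in every pair (0.24 to 0.71, mean 0.33). The numbers were therefore taken to pair the libraries, although no label states a shared culture. The mean for other numbers, -0.06, is no further support. Deviations cancel within a group, which ties that mean to the one for the same numbers. The paper describes the knock-downs as independent experiments and compared endogenous Gata6 between siRNAs with a paired test. It does not say which libraries form a pair. Consecutive libraries of 1 siRNA also resembled each other, with correlations of -0.07 to 0.71, and of 0.71 for 5 with 6 in both siRNAs. Pair counts and block results rest on the pairing by number. The methods call the induction libraries independent replicates. No label states separate cultures, so p-values measure the spread between libraries, part of which may be technical.

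Named genes were the 6 POU genes, Gata6 and Sox17, up to 4 genes of each list with the largest absolute change in the contrast described, and for each tested POU gene the 5 genes of highest correlation. The summed POU level took 15 POU-domain genes and left out Pou2af1, which encodes no POU domain. Promoter windows came from RefSeq (GRCm38.p6) and gene positions from GENCODE M21. Alternatives were other scaling, pseudocount, filters, replicate block, no fold minimum, libraries left out and only the 2 groups compared.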

Additional observations from a re-analysis of the deposited data

How the results depend on the processing

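Pou5f1 kept the direction of its change in all 14 contrasts under every alternative run, with -1.80 to -1.67 at 96 h, -5.29 to -4.65 at 168 h and -12.62 to -10.29 in XEN cells, all called. With no fold minimum it was also called at 72 h (-0.89) and from 72 to 96 h (-0.85), and the latter ranged from -1.0 to -0.76 with 1 library number left out, called without number 3. With consecutive siRNA libraries averaged, a choice made after seeing the data, the siOct4 difference of Pou5f1 was -1.52 with limma adjusted p = 0.0573, in a fit of fewer samples.

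With no fold minimum, 1 POU gene was called higher at 16 h, and 1 lower at 24 h. The lower calls were then 3 after 48 h, 4 after 72 h and 5 after 96 h, with 2 from 24 to 48 h, 1 from 48 to 72 h, 2 from 72 to 96 h and 3 from 168 h to XEN cells, and 2 higher from 96 to 168 h. In either direction, 1949 of all 15057 genes passed a limma adjusted p under 0.05 at 16 h and 4293 at 24 h. At 48, 72 and 96 h, 8093, 9873 and 10138 did. The steps from 24, 48, 72 and 96 h to the next time had 5645, 4450, 2477 and 6432, and that to XEN cells 7525. The 5 at 96 h include Pou6f1, which its 168 h mean alone brought past the filter. With a filter of 5 TPM, 0 POU genes were called at 48 h and 1 at 72 h, since fewer genes were tested. With 1 number left out, the counts of genes called lower were 0 to 1 at 48 h (0 without number 3), 1 to 2 at 72 h (1 without number 1), 0 to 1 from 16 to 24 h and 0 to 1 from 72 to 96 h (1 without number 3 in both). With a pseudocount of 0.1, 1 was called lower from 72 to 96 h, 1 higher from 96 to 168 h and 2 lower from 168 h to XEN cells. The higher counts from 96 to 168 h include Pou6f1, which its 168 h level alone brought past the filter, so they say nothing of a rise. With averaged libraries, 0 were called for siOct4.

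With no fold minimum, 6 partners, 1 target and 5 trophectoderm genes were higher at 168 h, the last also 5 with a pseudocount of 0.1. At that time 11286 of all 15057 genes passed a limma adjusted p under 0.05 in either direction. The counts include Nr2f1, Hand1 and Cdx2, which passed the filter only through groups other than 0 h. For these genes the counts say nothing of a rise. For siOct4, the replicate block called 1 partner higher and 3 lower, 2 targets lower and 4 trophectoderm genes higher. It called 2.43% of all genes higher and 6.15% lower. Rescaling called 1 partner lower. With 1 number left out, 0 to 2 partners (2 without number 3) and 0 to 1 targets were lower. Averaged libraries gave 0 targets lower and 0 trophectoderm genes higher. Where no reason is given, the cause was not tested. The share of Pou5f1 over the 6 POU genes alone was 98.3% before Dox, 97.8% after 16 h, 98.0% after 24 h and 98.4% after 48 h.

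In the induction series, libraries of the same number did not deviate together (mean correlation 0.03 over 77 pairs, from -0.19 to 0.22). The replicate block gave Pou5f1 differences of -4.87 at 168 h and -10.33 in XEN cells and changed no call of a POU gene in either series. TPM hold no depth, so values near 0 have no known counting error.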
